A study of Homo sapiens with 36 samples.

Results

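AP-1 is a family of dimeric transcription factors, and 10 of its genes are described here across all 36 messenger RNA libraries of the series: FOS, FOSB, FOSL1 and FOSL2 of the Fos family, JUN, JUNB and JUND of the Jun family, and ATF3, BATF3 and JDP2 of the ATF group. They were chosen by symbol from the 61587 genes of the deposited count table, and all 10 passed the filter on low counts that left 22486 genes for testing. The libraries came from TXNL1 KO HEK293T cells, that is, human embryonic kidney cells whose TXNL1 gene was disrupted. TXNL1 is a thioredoxin-like protein that binds the proteasome. These cells carried an empty vector or expressed WT TXNL1, the D162R R234D mutant (DR-RD in the labels), which is deficient in proteasome binding, or the SxxS mutant of the thioredoxin domain. Every line was left untreated (labelled DMSO) or was given arsenite at 100 µM or hydrogen peroxide at 600 µM for 6 h, as stated in the methods and not in the labels, so that 12 groups of 3 replicates resulted. All 36 libraries thus share the TXNL1 knockout, which was made by CRISPR and single-cell sorting. Whether the lines descend from 1 clone was not given in the sources used here. The labels do not say that replicates were separate cultures, so the p-values below measure only the spread between these samples.

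AP-1 proteins bind DNA as pairs held together by a leucine zipper, a coiled coil beside a basic DNA-binding region. Jun proteins can pair with themselves or with others, whereas Fos proteins need a partner, usually a Jun protein. The pairs recognize a short palindrome known as the TRE, and pairs with ATF members favor the longer CRE. FOS, FOSB, JUN, JUNB and ATF3 are known as immediate-early genes, whose transcription starts within minutes of growth signals or stress without new protein synthesis. ATF3 and JDP2 are known mostly as repressors, and BATF3 is best known from dendritic cells. Stress kinases of the JNK and p38 groups phosphorylate Jun and ATF proteins and the factors that drive FOS.

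The region just before the transcription start is shown for 4 members, since FOS and FOSB rose most of the Fos genes after arsenite and JUN and JUNB moved in opposite directions. RefSeq promoters on GRCh38.p14 were matched for 8 of the 10 genes. FOSL1 and BATF3 were not matched. Each run holds the 150 bases upstream of the start, 5′ to 3′ on the strand of the gene, and capitals mark matches to TGACG, the half-site of the CRE, or to the full CRE-like TGACNTCA.

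FOS, chr14:75278678-75278827 (+ strand): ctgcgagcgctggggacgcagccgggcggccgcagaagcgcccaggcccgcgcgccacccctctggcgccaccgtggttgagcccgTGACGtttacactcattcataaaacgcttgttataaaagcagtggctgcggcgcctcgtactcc
FOSB, chr19:45467846-45467995 (+ strand): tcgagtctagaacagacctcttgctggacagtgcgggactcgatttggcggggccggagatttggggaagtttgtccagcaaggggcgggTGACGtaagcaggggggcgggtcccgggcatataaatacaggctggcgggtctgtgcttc
JUN, chr1:58784048-58784197 (- strand): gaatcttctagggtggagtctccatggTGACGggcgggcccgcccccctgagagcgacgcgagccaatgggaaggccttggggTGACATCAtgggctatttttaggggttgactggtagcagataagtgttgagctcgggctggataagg
JUNB, chr19:12791336-12791485 (+ strand): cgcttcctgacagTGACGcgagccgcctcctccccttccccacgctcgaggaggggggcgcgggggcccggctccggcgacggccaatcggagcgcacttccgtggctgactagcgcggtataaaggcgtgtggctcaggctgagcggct

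On GRCh38 with GENCODE 44, the members lie at chr14:75278826-75282230 (FOS), chr19:45467995-45475179 (FOSB), chr11:65892049-65900573 (FOSL1), chr2:28392448-28417317 (FOSL2), chr1:58776845-58784048 (JUN), chr19:12791486-12793315 (JUNB), chr19:18279694-18281622 (JUND), chr1:212565334-212620777 (ATF3), chr1:212686417-212699840 (BATF3) and chr14:75427716-75474111 (JDP2). With the exons of all annotated transcripts of a gene merged, JUNB and JUND form 1 block each and the other members 3 to 8. A count of such blocks is not the exon number of any single transcript. FOS lies near JDP2 on chromosome 14, and ATF3 near BATF3 on chromosome 1.

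Counted from the start, the half-site lay at -64 to −60 in FOS, at −60 to −56 in FOSB, at −123 to −119 in JUN and at −137 to −133 in JUNB. JUN also held the CRE-like TGACATCA at −67 to −60. In windows of 250 bases before and 50 after the start, read on both strands, TGACG occurred in 6 of the 8 matched genes. ATF3 and JDP2 lacked it. Of 35114 RefSeq promoters 24.6% held TGACG, and every full site with G at its center also holds it. TGACNTCA occurred in JUN and JUND and in 7.72% of promoters. The TRE, searched as TGANTCA, occurred in FOSL2 alone of the 8 and in 7.71% of promoters. TATAAA occurred in FOS, FOSB, JUNB and ATF3 and in 11.5% of promoters. The CArG box, the site of serum response factor, occurred in 0 of the 8 windows and in 1.29% of promoters. Sites farther than 250 bases upstream of a start were not searched. The RefSeq windows of ATF3, FOSL2 and JDP2 lie at starts inside the gene as annotated in GENCODE 44. In the ATF3 window, TATAAA lay at −230 to −225. These matches are descriptions of the sequence only.

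The libraries held between 42072410 and 174119002 counts (median 66016833). TXNL1 mRNA had a mean of 30.6 ± 1.77 CPM (counts scaled to a common library size; SD, n = 3) in the untreated vector line and 53.4 to 62.9 CPM in the untreated complemented lines. Of 6 genes taken as markers of HEK293T cells, VIM, KRT18, KRT8 and INA were expressed in every library, whereas NEFM and PAX2 did not exceed 0.0815 and 0.127 RPKM (CPM per kilobase of gene length). Markers of blood, liver, endothelium and muscle summed to at most 0.137 RPKM. A pair of WT libraries, arsenite replicate 1 and hydrogen peroxide replicate 2, stood apart from the other replicates of their groups. In both, JUNB, JUND, BATF3, JDP2 and FOSL1 were higher and FOS, FOSB and FOSL2 lower than in the other replicates, by a log2 difference of up to 0.95 for BATF3 in the hydrogen peroxide library. JUN differed by −0.02 and 0.03 in these libraries. Values without them are given beside the calls that changed when both were left out.

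In untreated cells, JUN was the most abundant AP-1 mRNA per length and FOS the least. On the RPKM scale, computed with the gene lengths in the authors' table, JUN had a median of 30.4 over 12 untreated libraries (24.3 to 33.7). Then came JUNB (5.41), ATF3 (5.10), JUND (4.55) and BATF3 (3.32), whose ranges each overlapped with that of the next. FOSL1 (1.39), FOSL2 (1.06) and JDP2 (0.784) followed without overlap between neighbors. FOSB (0.349) and FOS (0.219) were lowest, with overlapping ranges. The Jun family made up a median of 76.6% of the summed RPKM of the 10 genes, the ATF group 17.7% and the Fos family 5.75%.

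Arsenite, a metalloid that causes oxidative stress, was compared with untreated cells within each line, to ask how the oxidant changed the transcriptome with and without functional TXNL1. The AP-1 genes answered in both directions: 9 of 10 rose and JUNB fell in the average over the 4 lines, where 37.4% of all tested genes were called higher and 31.5% lower at an adjusted p under 0.05 with edgeR's quasi-likelihood test. All 10 genes separated the 12 arsenite from the 12 untreated libraries without overlap, as 30.0% of tested genes did. Most tested genes thus responded, and the size of the members' changes is given beside their count. The median log2 fold change of the members was 1.72, against 0.06 over all tested genes. The changes spanned a rise of 292-fold for FOS to a fall to 0.579 of the untreated level for JUNB.

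**Figure D1:**
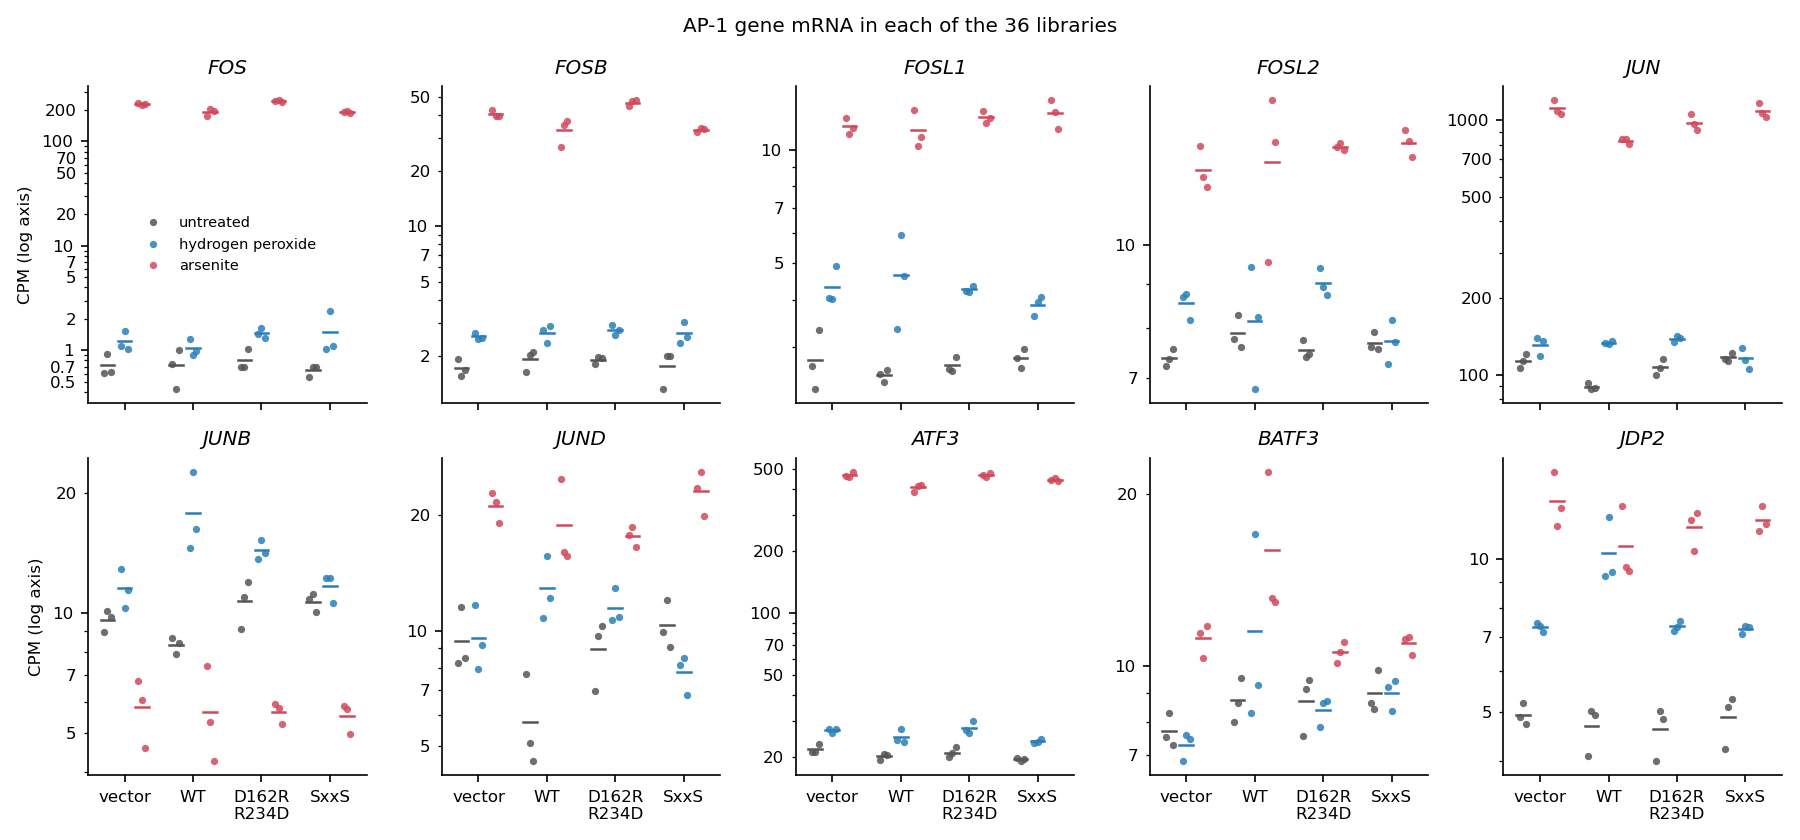
Level of each AP-1 mRNA in CPM (log axis, a separate scale for each gene) in the 4 lines, with 1 point per library and a bar at the mean of 3 replicates. Arsenite libraries lie above all untreated libraries for 9 genes and below them for JUNB.

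FOS, the founding Fos gene and a sensor of serum and stress signals, had 0.428 to 1.04 CPM in untreated libraries (median 0.696, from 18 to 66 counts each). In arsenite, it reached 234.2, 225 and 227 CPM in the vector line, 175, 204 and 193 in WT, 244, 247 and 237 with D162R R234D, and 193, 196 and 188 with SxxS. The lowest arsenite library thus stood far above the highest untreated one in every line. The log2 fold change averaged over lines was 8.19 ± 0.12 (SE), the third largest rise of 22486 tested genes (adjusted p = 7.6e-30, edgeR). It was 8.31 in the vector line, 7.98 in WT and 8.25 and 8.21 with the D162R R234D and SxxS mutants.

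FOSB, a close relative of FOS that is also induced early, rose from 1.32 to 2.11 CPM (median 1.94) in untreated cells to 26.8 to 47.8 CPM (median 38.1). Its arsenite values were 42.4, 39.4 and 39.4 CPM in the vector line, 26.8, 35.0 and 36.9 in WT, 44.5, 47.2 and 47.8 with D162R R234D and 32.3, 33.9 and 33.6 with SxxS. The D162R R234D libraries were the highest and the WT library that stood apart was the lowest. The average log2 fold change was 4.37 ± 0.07, the tenth largest rise (adjusted p = 3.48e-29, edgeR).

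FOSL1, which encodes FRA1 and lies downstream of ERK signaling, rose from a median of 2.63 CPM (2.32 to 3.32) to 11.96 CPM (10.2 to 13.5), a log2 fold change of 2.14 ± 0.07. FOSL2, which encodes FRA2, rose from a median of 7.58 CPM (7.23 to 8.29) to 13.0 CPM (9.57 to 14.7), a log2 fold change of 0.73 ± 0.05. FOSL2 changed least of the Fos genes, and its lowest arsenite value was that of WT replicate 1, which stood apart.

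JUN, the central partner in AP-1 dimers and a substrate of JNK, rose from 88.0 to 122 CPM to 803 to 1194 CPM. In arsenite it had 1194, 1083 and 1056 CPM in the vector line, 841, 843 and 803 in WT, 1053, 964 and 910 with D162R R234D and 1164, 1064 and 1029 with SxxS. The WT libraries were below those of the other lines, in arsenite as in the untreated state described further down. The average log2 fold change was 3.22 ± 0.04, or 9.34-fold (adjusted p = 1.1e-31, edgeR).

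JUNB, a Jun protein that pairs with the same Fos partners and often restrains JUN, was the one member that fell. Untreated libraries had 7.89 to 11.97 CPM (median 9.90). Arsenite libraries had 6.77, 6.06 and 4.59 CPM in the vector line, 7.38, 5.34 and 4.27 in WT, 5.90, 5.78 and 5.27 with D162R R234D and 5.87, 5.75 and 4.98 with SxxS. The highest arsenite value was in the WT library that stood apart, and even this was below the lowest untreated one. The average log2 fold change was −0.79 ± 0.08 (adjusted p = 5.43e-10, edgeR). In the WT line alone it was −0.55 (adjusted p = 0.00519), and without arsenite replicate 3 of that line it was −0.37 (adjusted p = 0.0545). Without both WT libraries that stood apart it was −0.85 (adjusted p = 1.11e-06, edgeR). Exons of HOOK2 on the opposite strand overlap 14.2% of the exon bases of JUNB. The strand setting of the counting was not given in the sources used here, so reads of the 2 genes may not be told apart there.

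JUND, the Jun gene expressed most steadily in many tissues, rose from a median of 8.78 CPM (4.57 to 12) to 19.5 CPM (15.7 to 25.9). The log2 fold change was 1.26 ± 0.10 on average and 1.71 in WT, where the untreated level was lowest (1.43 without both WT libraries that stood apart).

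ATF3, a stress-induced factor downstream of ATF4 and of MAP kinases, had the smallest p of all 22486 genes. Untreated libraries had 19.3 to 23.1 CPM. Arsenite libraries had 459, 456 and 482 CPM in the vector line, 388, 414 and 419 in WT, 467, 455 and 475 with D162R R234D and 441, 449 and 435 with SxxS. Replicates lay close together, and the groups did not approach each other. The average log2 fold change was 4.42 ± 0.03, or 21.5-fold, the eighth largest rise (adjusted p = 5.0e-37, edgeR).

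JDP2, which encodes a repressor that pairs with Jun proteins, rose from a median of 4.90 CPM (4.01 to 5.29) to 11.8 CPM (9.45 to 14.8), a log2 fold change of 1.30 ± 0.06. BATF3 changed least, from a median of 8.54 CPM (7.29 to 9.86) to 11.2 CPM (10.1 to 21.8). Its highest arsenite value was in the WT library that stood apart, and its average log2 fold change was 0.50 ± 0.09 (adjusted p = 1.66e-05, edgeR).

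By line, 43.4% of tested genes were called after arsenite in the vector line, 53.6% in WT, 44.0% in the D162R R234D line and 43.6% with SxxS. All 10 members were called in the vector and WT lines, and 9 in each mutant line. BATF3 made the difference, with log2 fold changes of 0.54 (adjusted p = 0.0167), 0.88 (0.000169), 0.28 (0.215) and 0.29 (0.202) in these lines by edgeR. On leaving out 1 library at a time, the BATF3 change in WT ranged from 0.58 to 1.01, and without both WT libraries that stood apart it was 0.55 (adjusted p = 3.23e-06, edgeR). Without those 2 libraries, BATF3 was called with D162R R234D and SxxS too (adjusted p = 0.00475 and 0.00397, edgeR). In the vector line, its call was lost without arsenite replicate 3 (adjusted p = 0.0550) or without untreated replicate 3 (adjusted p = 0.0588).

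The question whether TXNL1 alters this response was put to the interaction of line and arsenite. No member was called by edgeR when the 4 lines were tested together, and 0% of all tested genes were. FOSB was the only member at an unadjusted p under 0.05 (its adjusted p was 0.728 by edgeR), beside 1432 of all genes. DESeq2 called 0 members beside 35 of all genes, and edgeR without both WT libraries that stood apart called 0 beside 46. Without those libraries, 6 of all genes differed in WT minus vector and 1 in each mutant line minus vector. In the fit reported, the share of genes whose arsenite response differed from the vector line was 0% in WT and in both mutant lines. At an unadjusted p under 0.05, 1 member passed in WT and 0 in the mutant lines. Of all tested genes, 1938 did in WT, 430 with D162R R234D and 487 with SxxS. For ATF3, the log2 response of WT minus that of the vector line was −0.08 (95% interval −0.248 to 0.086), and that of D162R R234D minus vector was 0.05 (−0.113 to 0.22). For JUN, the same differences were −0.08 (−0.296 to 0.128) and −0.11 (−0.318 to 0.106). For FOS they were −0.32 (−1 to 0.353) and −0.06 (−0.712 to 0.602), which is less precise because untreated counts were low. For FOSB, the WT difference of −0.46 (−0.837 to −0.082) had an adjusted p of 0.546 with edgeR, and the SxxS difference was −0.32 (−0.692 to 0.053). The intervals were wide for JUND, at 0.54 (−0.03 to 1.111) for WT minus vector, and for BATF3, at 0.34 (−0.178 to 0.863).

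**Figure D2:**
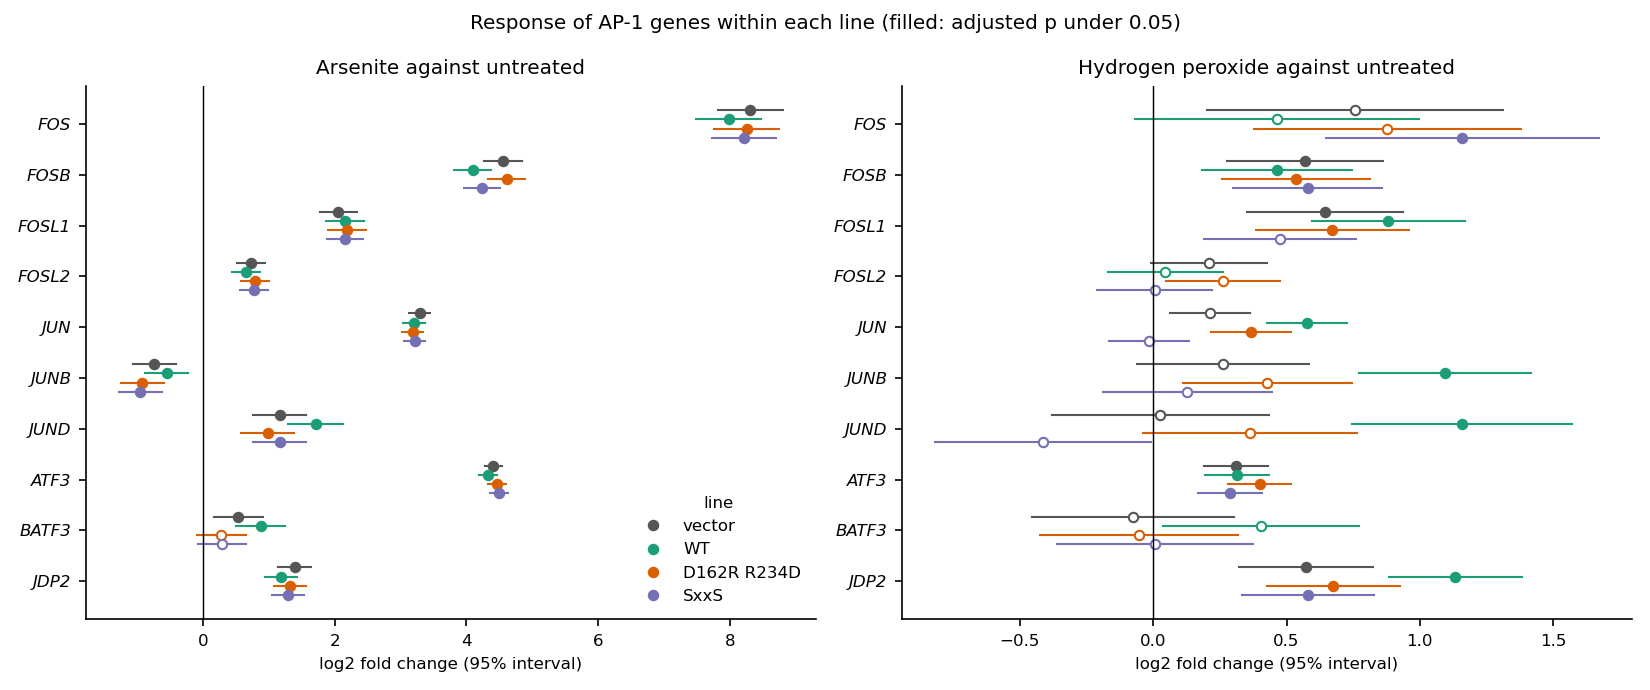
Log2 fold change of each AP-1 gene against untreated cells of the same line, for arsenite (left) and hydrogen peroxide (right), with 95% intervals and filled points where the adjusted p was under 0.05. After arsenite, BATF3 ranges from 0.28 to 0.88 between lines and JUND reaches 1.71 in WT. After hydrogen peroxide, JUND ranges from −0.41 to 1.16.

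The make-up of AP-1 mRNA shifted with arsenite. The summed RPKM of the 10 genes had a median of 53.9 in untreated libraries (43.5 to 57.0) and 498 in arsenite (417 to 555). JUN kept a median share of 56.7% untreated and 56.3% in arsenite, with overlapping ranges. FOS went from 0.404% to 13.7% and ATF3 from 10.1% to 22.5%. JUNB went from 10.4% to 0.623%, since its level fell while the sum grew. The Jun family as a whole held 58.9% in arsenite, the ATF group 23.8% and the Fos family 16.6%. In arsenite the order per length was JUN (median 287 RPKM), ATF3 (112), FOS (67.3), JUND (10.1), FOSB (6.87), FOSL1 (6.34), BATF3 (4.37), JUNB (3.15), JDP2 (1.89) and FOSL2 (1.82). JUN, ATF3 and FOS did not overlap with their neighbors, whereas from JUND down each range overlapped with that of the next gene.

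**Figure D3:**
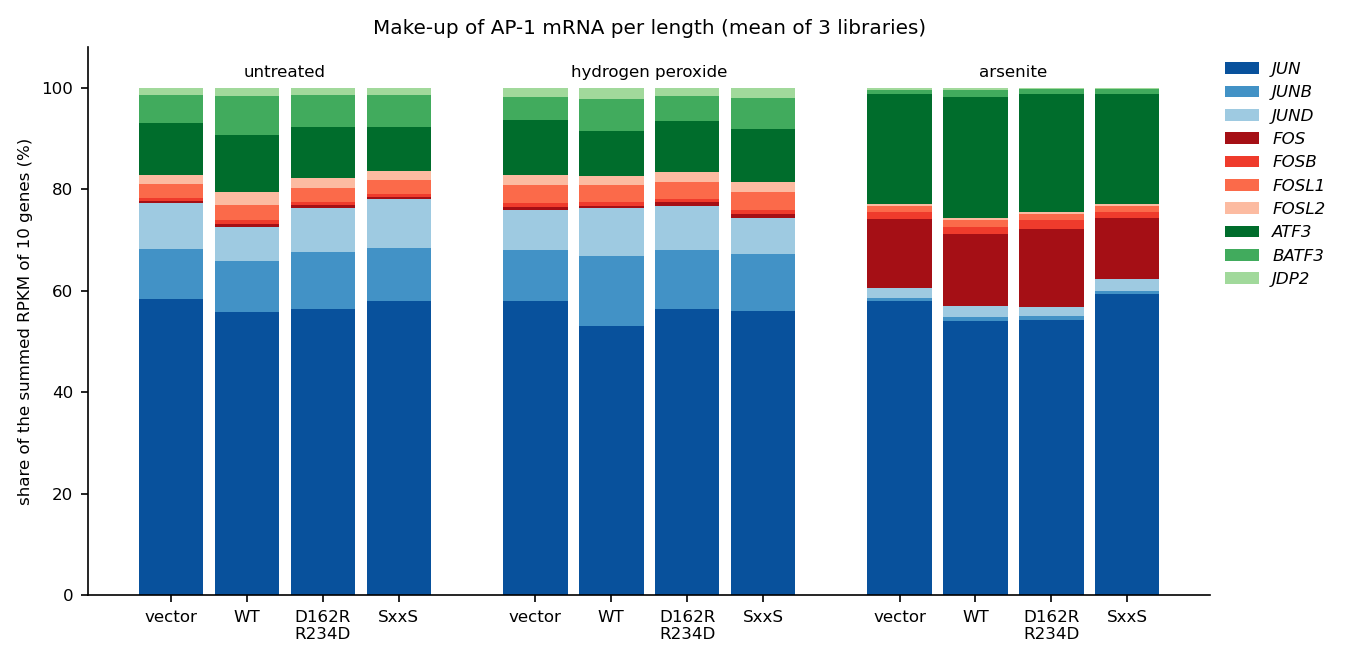
Share of each gene in the summed RPKM of the 10 AP-1 genes (%), as the mean of 3 libraries per group, by treatment and line. FOS and ATF3 take a larger share in arsenite, JUNB and JUND a smaller one, and the share of JUN stays near that of untreated cells.

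Hydrogen peroxide was the second oxidant, and the AP-1 genes differed far less from untreated cells after 6 h of it. Averaged over the lines, 7 of 10 members were called higher and 0 lower, where 6.78% of tested genes were called higher and 5.30% lower by edgeR. The median log2 fold change of the members was 0.40, against 0.005 over all tested genes. FOS (0.82 ± 0.13), JDP2 (0.74 ± 0.06), FOSL1 (0.67 ± 0.07), FOSB (0.54 ± 0.07), JUNB (0.48 ± 0.08), ATF3 (0.33 ± 0.03) and JUN (0.29 ± 0.04) rose. FOSL2 (0.13, adjusted p = 0.112), JUND (0.28, adjusted p = 0.0606) and BATF3 (0.07, adjusted p = 0.719) did not pass. FOSL2 was called without both WT libraries that stood apart (0.15, adjusted p = 0.000748, edgeR), and JUND was called with DESeq2 (adjusted p = 0.0353).

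FOSB, FOSL1, ATF3 and JDP2 separated the 12 hydrogen peroxide from the 12 untreated libraries without overlap, as 1.15% of tested genes did. ATF3 had 23.4 to 30.1 CPM in hydrogen peroxide against 19.3 to 23.1 CPM untreated. JDP2 had 7.11 to 12.1 CPM against 4.01 to 5.29 CPM, and its highest value was in the WT library that stood apart. FOS overlapped, with 0.897 to 2.36 CPM against 0.428 to 1.04 CPM. Within lines, the hydrogen peroxide calls numbered 4 members in the vector line, 7 in WT and, among the mutants, 5 with D162R R234D and 4 with SxxS, where 1.35%, 8.06%, 1.03% and 1.02% of tested genes were called. Leaving out 1 library at a time, these counts ranged from 2 to 3, 6 to 8, 2 to 4 and 1 to 4, beside 137 to 170, 682 to 3819, 124 to 157 and 82 to 175 of all genes. When only the untreated and hydrogen peroxide libraries of WT were fitted, 0 members and 1 gene of all were called by edgeR, with adjusted p from 0.307 to 0.645 for the 7 members, each at an unadjusted p under 0.05. Without both WT libraries that stood apart, the counts by line were 4, 7, 8 and 5, beside 2219, 2020, 2328 and 1475 of all genes. The calls gained in D162R R234D were FOS (0.89, adjusted p = 0.0241), FOSL2 (0.26, adjusted p = 0.0102) and JUNB (0.43, adjusted p = 0.00588), by edgeR. With SxxS it was FOSL1 (0.48, adjusted p = 0.00424, edgeR). In SxxS, the FOS value of 2.36 CPM in replicate 2 stood above 1.03 and 1.09 CPM in the others, and without it the FOS change was 0.72 (adjusted p = 0.179, edgeR).

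Set against each other over the 4 lines, arsenite exceeded hydrogen peroxide for 9 members and lay below it for JUNB, where 37.3% of tested genes were higher and 31.3% lower in arsenite. The log2 difference was 7.37 for FOS, 4.10 for ATF3, 3.84 for FOSB, 2.94 for JUN and 1.47 for FOSL1. It was 0.97 for JUND, 0.60 for FOSL2, 0.56 for JDP2 and 0.43 for BATF3. For JUNB it was −1.27, since JUNB rose in hydrogen peroxide and fell in arsenite. The doses of the 2 oxidants differ, so the difference is between these treatments as given. Both were sampled only at 6 h, so earlier changes were not measured.

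The response of Jun genes to hydrogen peroxide differed between lines. In the interaction of line and hydrogen peroxide, 2 members were called by edgeR, JUN (adjusted p = 0.0121) and JUND (adjusted p = 0.0152), where 0.685% of tested genes were. JUN had 107, 113 and 121 CPM untreated and 140, 119 and 136 CPM in hydrogen peroxide in the vector line, and 92.9, 88.0 and 88.3 against 133, 132 and 136 CPM in WT. It had 100, 106 and 116 against 134, 142 and 140 CPM in D162R R234D, and 116, 114 and 122 against 128, 115 and 105 CPM with SxxS. The groups were apart in WT and D162R R234D and overlapped in the vector line and SxxS. The log2 changes of JUN were 0.21, 0.58, 0.37 and −0.01 in the vector line, WT, D162R R234D and SxxS. In the fit of the WT libraries alone, the adjusted p values by edgeR were 0.339 for JUN, 0.339 for JUNB and 0.411 for JUND.

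JUND had 8.21, 11.5 and 8.48 CPM untreated and 11.7, 7.94 and 9.16 CPM in hydrogen peroxide in the vector line, and 7.68, 5.08 and 4.57 against 10.8, 15.7 and 12.2 CPM in WT. It had 6.95, 9.68 and 10.3 against 10.6, 12.9 and 10.9 CPM in D162R R234D, and 9.90, 12 and 9.08 against 8.12, 8.46 and 6.77 CPM with SxxS. All hydrogen peroxide libraries were above the untreated ones in WT and D162R R234D, and all were below them with SxxS. The log2 changes of JUND were 0.03, 1.16, 0.36 and −0.41. Without both WT libraries that stood apart, the WT changes were 0.99 for JUND and 0.88 for JUNB. JUNB changed by 0.26, 1.09, 0.43 and 0.13 in the same order, with an interaction that missed the threshold (adjusted p = 0.0763, edgeR) and passed it with DESeq2 (adjusted p = 0.0158) and without both WT libraries that stood apart (adjusted p = 0.0197, edgeR).

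**Figure D4:**
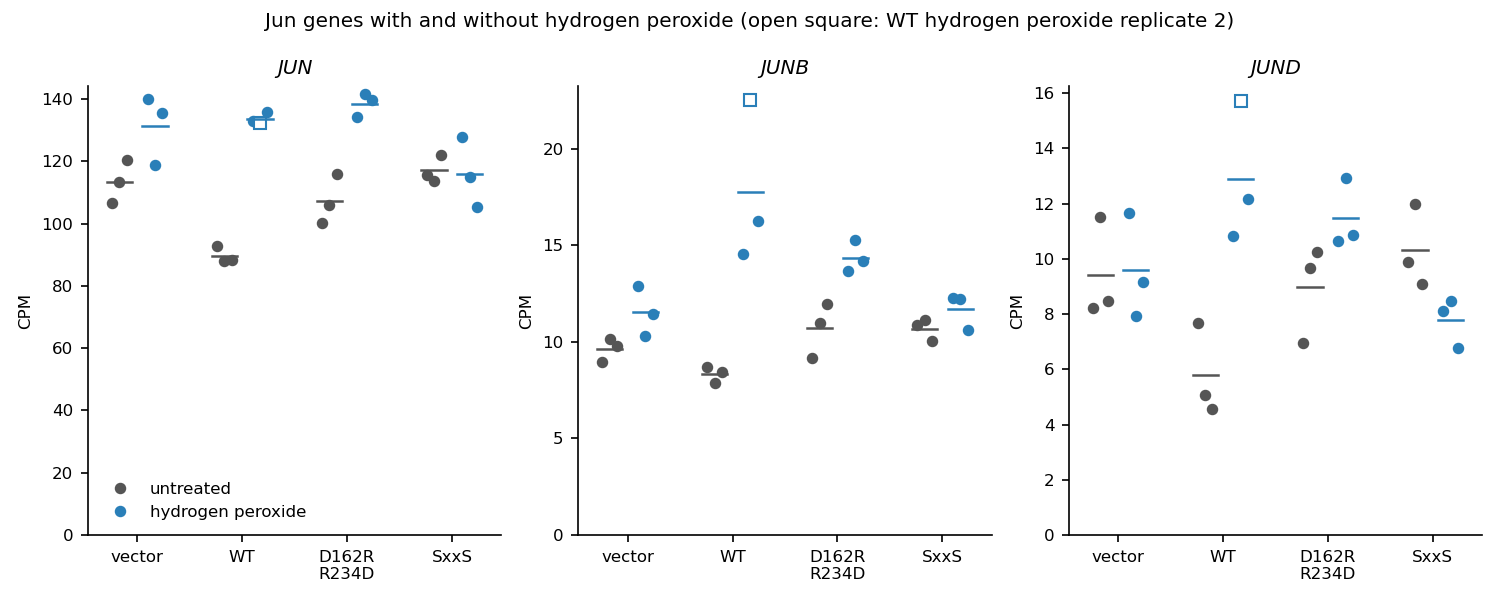
JUN, JUNB and JUND in CPM in untreated and hydrogen peroxide libraries of each line, with 1 point per library and a bar at the mean of 3. WT untreated libraries are the lowest for JUN, and the open square, WT hydrogen peroxide replicate 2, is the highest for JUNB and JUND.

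The interaction of JUN was lost without SxxS hydrogen peroxide replicate 3 (adjusted p = 0.0513, edgeR) or WT untreated replicate 3 (adjusted p = 0.0508, edgeR). That of JUND was lost without SxxS hydrogen peroxide replicate 3 (adjusted p = 0.0513), WT hydrogen peroxide replicate 2 (adjusted p = 0.0542), WT untreated replicate 2 (adjusted p = 0.0864) or WT untreated replicate 3 (adjusted p = 0.0949), all with edgeR. All these tests share the untreated libraries of their line.

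Without an oxidant, few AP-1 genes were called different between a complemented line and the vector line. Between untreated lines, 0.196% of tested genes were called for WT against vector, 0.0267% for the D162R R234D line and 0.0178% for the SxxS line. JUN in WT was the only member called (log2 difference −0.34, adjusted p = 0.0429, edgeR), with 92.9, 88.0 and 88.3 CPM against 107, 113 and 121 CPM. This call was lost on leaving out any of 5 of the 6 libraries, vector replicate 1 being the exception, with adjusted p from 0.0826 to 0.269. JUND had a mean of 5.78 CPM in WT against 9.41 in the vector line, a log2 difference of −0.70 (adjusted p = 0.204, edgeR). It was called without both WT libraries that stood apart (adjusted p = 0.0456, edgeR). At an unadjusted p under 0.05 by edgeR, 2 members differed between untreated WT and vector cells, beside 1574 of all 22486 tested genes. The D162R R234D line had 0 such members beside 702 genes, and the SxxS line had 1 beside 744.

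Genes that work with AP-1 were counted by list, by the change averaged over the lines, with edgeR. These counts are read beside the 37.4% of all tested genes called higher and 31.5% called lower after arsenite, with a median log2 fold change of 0.06, and beside 6.78% and 5.30% in hydrogen peroxide, with a median of 0.005. Of the other leucine zipper partners, 7 of 11 tested were called higher after arsenite and 3 lower (median log2 fold change 0.19). MAFF, a small MAF protein without an activation domain, rose by 3.78, CREB5 by 1.72 and BATF2 by 1.16 on the log2 scale. In hydrogen peroxide 4 were called higher and 0 lower, with CREB5 at 0.63. Without both WT libraries that stood apart, the counts were 5 and 0 in hydrogen peroxide, and 6 and 3 after arsenite. In that fit, 6430 of all tested genes were called in either direction in hydrogen peroxide and 16563 after arsenite. In the fit reported, 2716 and 15477 were. The list counts without these libraries, here and below, are read beside this general rise.

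The kinases upstream of AP-1 moved little beside the members. Of 16 genes of the MAP kinase cascades, 7 were called higher and 5 lower after arsenite (median 0.03). MAP3K5, the oxidant-sensitive kinase ASK1, fell by 1.15 on the log2 scale. MAPK10, which is JNK3, changed by 0.71 and MAPK11, which is p38β, by 0.66. In hydrogen peroxide, 0 were called higher and 2 lower, MAP2K6 at −0.23 and MAPK9 at −0.12. Without both WT libraries that stood apart, the counts were 5 and 4 in hydrogen peroxide, and 8 and 6 after arsenite. Of all tested genes, 6430 and 16563 were called in that fit. Of the 8 factors that bind the FOS promoter or coactivate there, 7 were lower and only CREB1 (0.43) higher after arsenite (median −0.45). MRTFB, a coactivator of serum response factor, was at −1.31, and the ternary complex factors ELK1, ELK4 and ELK3 were at −1.05, −0.68 and −0.48. In hydrogen peroxide, MRTFA (0.10) was the only one called, and without both WT libraries 2 were higher and 1 lower.

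Of 10 genes for the turnover of AP-1 mRNA and protein, 4 were higher and 5 lower after arsenite (median −0.08). ZFP36, or tristetraprolin, which destabilizes mRNAs with AU-rich elements such as that of FOS, rose by 2.28. FBXW7, a ubiquitin ligase subunit for JUN, was at −0.74, ZFP36L2 at −0.36 and COP1, another ligase for JUN, at 0.34. In hydrogen peroxide, ZFP36 rose (0.46) and DET1, the adaptor of COP1, fell (−0.30), and without both WT libraries the counts were 3 higher and 1 lower.

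Of 20 genes described elsewhere as AP-1 targets, 16 were tested, 6 were called higher and 1 lower after arsenite, and 9 were not called (median 0.19). The share called higher is near that of all tested genes (37.4%). VEGFA, an angiogenic growth factor, rose by 2.89, HMOX1, which degrades heme, by 2.23, HBEGF, an EGF receptor ligand, by 1.69 and PLAU, the urokinase protease, by 1.44. CCND1, which encodes cyclin D1, was the one called lower (−0.44). MMP10, IL6, CXCL8 and IL11 did not pass the filter and had 9, 119, 41 and 137 counts in total over the 12 arsenite libraries, and BATF of the partner list had 8. In hydrogen peroxide 8 targets were higher and 0 lower, among them LIF (0.95) and PLAU (0.67), and without both WT libraries the counts were 10 and 0.

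**Figure D5:**
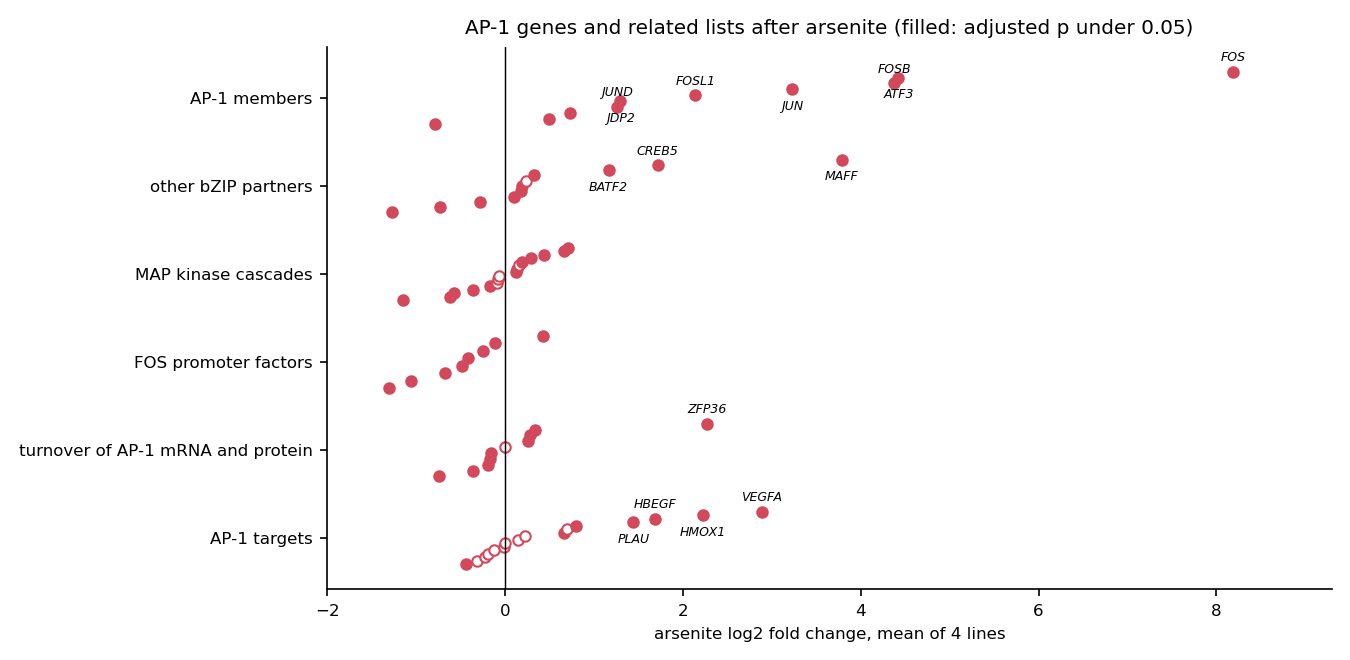
Arsenite log2 fold change averaged over the 4 lines for the AP-1 genes and the genes of 5 related lists, with filled points where the adjusted p was under 0.05 and names beside rises over 1.1. The FOS promoter factors lie mostly below 0, while FOS itself lies at 8.19.

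The genes whose levels followed the 3 strongest members most closely were ranked by Pearson's r over the 12 group means of log2 CPM, among 15594 tested non-members with a mean log2 CPM above 0. For FOS, these were SULT4A1 (r = 0.999), BTN2A1 (0.998) and TRA2B (0.998). For ATF3, they were TRA2B (0.999), DUSP8 (0.999), a phosphatase of JNK and p38, and SULT4A1 (0.999). For FOSB, they were YARS1 (0.999), EIF1AD (0.999) and RSRC2 (0.998). With 4 arsenite groups far from the other 8, such values are set mainly by the contrast of arsenite with the rest. The changes of these genes were smaller than those of FOS, ATF3 and FOSB, though not than those of all members. Their arsenite log2 fold changes ranged from 0.93 for BTN2A1 to 3.802 for DUSP8.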

How the data were processed

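Messenger RNA of 36 libraries (12 groups of 3) was sequenced as 100-base paired-end reads from a strand-specific kit. The authors aligned reads to GRCh38 with qAlign and deposited raw counts per gene, neither normalized nor pooled. The annotation release, the strand setting and the counter were not given in the sources used here. Replicate pairs had a chi-square per degree of freedom between 3.18 and 331, so none was a duplicate.

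Counts were analysed with edgeR 4.0.16 in R 4.3.3 (TMM scaling, 12 group means over all libraries, robust quasi-likelihood test, Benjamini-Hochberg adjustment). Genes whose counts in the 3 untreated vector libraries summed to 10 or more were kept, as in the study's methods. CPM use TMM-scaled library sizes, and RPKM use the lengths in the authors' table. Intervals are 95% intervals from the fit. Positions and exon overlaps are from GENCODE 44. The code was tested on simulated data.

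The members and lists were chosen with earlier results of these data known. All members were named. In each list, up to 4 called genes with the largest arsenite change and up to 2 for hydrogen peroxide were named, plus any sole gene called in a direction. For 2 genes that this rule would name, values are not reported here. Alternatives were DESeq2 1.42.0, its size factors, total counts, other filters, a replicate block, only the groups compared, exon lengths from the annotation, leaving out libraries and, added after the data were seen, halved counts and list counts without both WT libraries that stood apart. Same-numbered replicates of different groups deviated together with a correlation above 0.1 in 9 of 36 pairs (median 0.031), so the numbers were not taken to pair samples.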

Additional observations from a re-analysis of the deposited data

Results flagged for a closer look

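The change of JUN and of JUND in hydrogen peroxide differed between the 4 lines by the test of the interaction (adjusted p = 0.0121 for JUN and 0.0152 for JUND, edgeR). JUN rose most in WT (log2 change 0.58) and was at −0.01 with SxxS, and JUND was at 1.16 in WT and −0.41 with SxxS. In WT, the untreated levels of both genes had the lowest mean of the 4 lines, and JUND was 0.45 higher on the log2 scale in the hydrogen peroxide library that stood apart than in the other replicates, whereas JUN was 0.02 lower. The part of these in the result was not tested. JUND transcripts have a GC content of 69.9% and JUN transcripts of 56.1%.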

How the results depend on the processing

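All 9 rises and the fall of JUNB after arsenite, averaged over the lines, kept their call under every alternative run, and no called change reversed. Counts of called members were 0 for WT against vector with DESeq2's size factors, 0 without a filter and 2 without both WT libraries that stood apart, beside 44, 11 and 673 of all genes (44 in the fit reported). Without a filter, hydrogen peroxide calls were 2 in the vector line and 2 with SxxS, beside 94 and 74 of all genes. Without both WT libraries they were 8 in D162R R234D (2328 of all genes), and with only the groups compared they were 0 in WT (7 at an unadjusted p under 0.05, and 1 gene of all called). With the replicate block, JUND passed in hydrogen peroxide (log2 change 0.28, adjusted p = 0.0450, edgeR), and no other call changed.

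On leaving out each library in turn, called members ranged for arsenite from 9 to 10 in the vector line and from 9 to 10 in WT, and were 9 in D162R R234D, 9 with SxxS, 10 in the average and 10 against hydrogen peroxide. For hydrogen peroxide they ranged from 2 to 3 in the vector line, from 6 to 8 in WT, from 2 to 4 in D162R R234D, from 1 to 4 with SxxS and from 7 to 8 in the average. Of all genes, 137 to 170, 682 to 3819, 124 to 157, 82 to 175 and 2408 to 3748 were called in these fits. After arsenite, 8591 to 8827 were in the vector line, 9618 to 12444 in WT, 8733 to 9231 in D162R R234D and 8524 to 8775 with SxxS. In the arsenite average 15106 to 15635 were, and for arsenite against hydrogen peroxide 15114 to 16502. For WT against vector members ranged from 0 to 1 (all genes 5 to 40), for the hydrogen peroxide interaction from 0 to 3 (67 to 299), and in the other line and arsenite interaction tests they were 0. The vector count was 2 without any single library of its groups other than hydrogen peroxide replicate 2. The D162R R234D count was 2 without untreated replicate 1 and 3 without untreated replicate 2. The SxxS count was 1 without hydrogen peroxide replicate 2 or 3 or untreated replicate 1, and 2 without untreated replicate 2. FOSB lost its hydrogen peroxide call in all 4 lines with total counts. With halved counts it was lost in the vector line and D162R R234D (adjusted p = 0.0617 and 0.0562, edgeR), as it was without a filter. With only the groups compared it was lost in WT and D162R R234D. On leaving out 1 library, this call was lost in 6 of 6 fits in D162R R234D and 5 of 6 in the vector line. In WT and with SxxS it was lost in 3 of 6 each. FOS had 18 to 66 counts per untreated library, which limits the precision of its fold change.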
